A study of Homo sapiens with 40 samples.

Results

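The genes described here are 7 amino acid transporters of the SLC7 family, SLC7A1, SLC7A2, SLC7A5, SLC7A6, SLC7A7, SLC7A8 and SLC7A11, together with SLC3A2, the heavy chain that several of them need. They were taken by symbol and are 8 of the 59251 gene symbols in the count table. Of the 8 genes, 7 passed the filter on low counts and were tested among 19703 genes, and SLC7A8 did not pass.

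RNA of H1299, a lung carcinoma cell line of human origin, was sequenced in 10 lines with 4 cultures each, which the labels call biological replicates. Unedited lines, all wild-type for MYO10 and JAG1 by their labels, were the parental H1299 cells, the leader line 3L2 and the follower line 3F2, leader cells being those that head an invading group and follower cells those that trail it. CRISPR-Cas9 had been used on the remaining 7 lines, each a clone and of leader origin if the title of the series is followed. Clones 38 and 75 are labelled wild-type for MYO10 and JAG1 and are called the wild-type clones. Clones 35 and 72 are labelled JAG1 knockout, and clones 98 and 99 MYO10 knockout. Clone 84 carries KD (MYO10) as its genotype but KO in its title, and is called the knockdown clone here. A genotype is carried by 1 or 2 clones, and the cultures of a clone are not separate editing events, so p-values measure the spread between cultures of a line.

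Libraries held 40038816 to 44013445 counts. MYO10, the gene of myosin-X, stood at 491 ± 79.9 and 441 ± 66.9 CPM (counts per 1000000 counts of a library whose total was scaled by the TMM method, mean ± SD, n = 4) in wild-type clones 38 and 75. It stood at 63.4 ± 5.82 and 52 ± 5.08 CPM in knockout clones 98 and 99 and at 150 ± 27.3 CPM in the knockdown clone. JAG1, the gene of the Notch ligand Jagged-1, stood at 44.2 ± 9.63 and 40.5 ± 1.38 CPM in the wild-type clones, at 32.4 ± 1.76 CPM in clone 35 and at 6.49 ± 0.296 CPM in clone 72. In clone 72 JAG1 was lower than in either wild-type clone (log2 -2.77 ± 0.19 and -2.64 ± 0.19, edgeR adjusted p = 2e-13 and 7.2e-13). In clone 35 the log2 differences were -0.45 ± 0.17 from wild-type clone 38 (edgeR adjusted p = 0.025) and -0.32 ± 0.17 from wild-type clone 75 (edgeR adjusted p = 0.11), so its JAG1 RNA does not bear out the label, although each of its cultures, at 30.4 to 33.9 CPM, lay below every wild-type culture, at 37.6 to 58.5 CPM. JAG1 protein was not analysed here, so whether clone 35 lacks Jagged-1 cannot be told from these values. The wild-type clones were themselves low in JAG1 beside the unedited leaders at 139 ± 18.7 CPM, the parentals at 295 ± 53.6 CPM and the MYO10-edited clones, at 80.5 ± 13.7 (clone 98), 102 ± 22.1 (clone 99) and 151 ± 41 CPM (clone 84), while followers had 17.5 ± 2.62 CPM. The carcinoma markers KRT18 and VIM were present in all libraries, at 48.1 to 802 and 1030 to 2740 CPM, and KRT8 ran from 3.36 to 674 CPM. Summed levels of 5 markers each were 0.0689 to 1.43 CPM for endothelium, 0.282 to 10 CPM for fibroblasts and 0.0717 to 1.82 CPM for lung epithelium. The 5 leukocyte markers summed to 44.7 to 119 CPM, nearly all of it CD68 at 44.6 to 118 CPM, while PTPRC and CD3E had no more than 2 counts in a library.

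SLC7 proteins carry amino acids across the plasma membrane, and they fall into a cationic branch that works alone and a light chain branch that reaches the membrane bound to a glycosylated heavy chain. SLC3A2, also called CD98hc or 4F2hc, is that heavy chain for SLC7A5 (LAT1, leucine and other large neutral amino acids), SLC7A8 (LAT2), SLC7A6 and SLC7A7 (y+LAT2 and y+LAT1, which exchange cationic for neutral amino acids) and SLC7A11 (xCT, which takes up cystine in exchange for glutamate and so feeds glutathione synthesis). SLC7A1 (CAT1) and SLC7A2 (CAT2) import arginine, lysine and ornithine. In many cell types, genes of this family are known to be transcribed more when amino acids run short, through the factor ATF4.

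Set per kilobase of annotated exon, with all annotated exons of a gene merged, SLC7A5 was the most abundant of the 8 genes in all 10 lines. Its line means ran from 54.8 to 148 CPM per kilobase, above SLC3A2 at 37.5 to 61.6 and SLC7A1 at 12.3 to 22.2 CPM per kilobase. SLC7A6 ran from 3.43 to 7.81, SLC7A11 from 1.31 to 7.11 and SLC7A2 from 0.338 to 6.7 CPM per kilobase. SLC7A7 reached at most 0.214 and SLC7A8 at most 0.0164 CPM per kilobase. Which transcripts were expressed was not determined, so the order of genes at similar levels depends on the length used. In leaders SLC7A5 and SLC3A2 stood at 58.8 and 39.2, and in followers at 54.8 and 37.5 CPM per kilobase. Between lines the genes differed in how far their levels moved. The log2 distance between the highest and the lowest line mean was 4.30 for SLC7A2 and 2.44 for SLC7A11, against 0.72 for SLC3A2, 0.87 for SLC7A1 and a median of 1.19 over all tested genes.

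**Figure D1:**
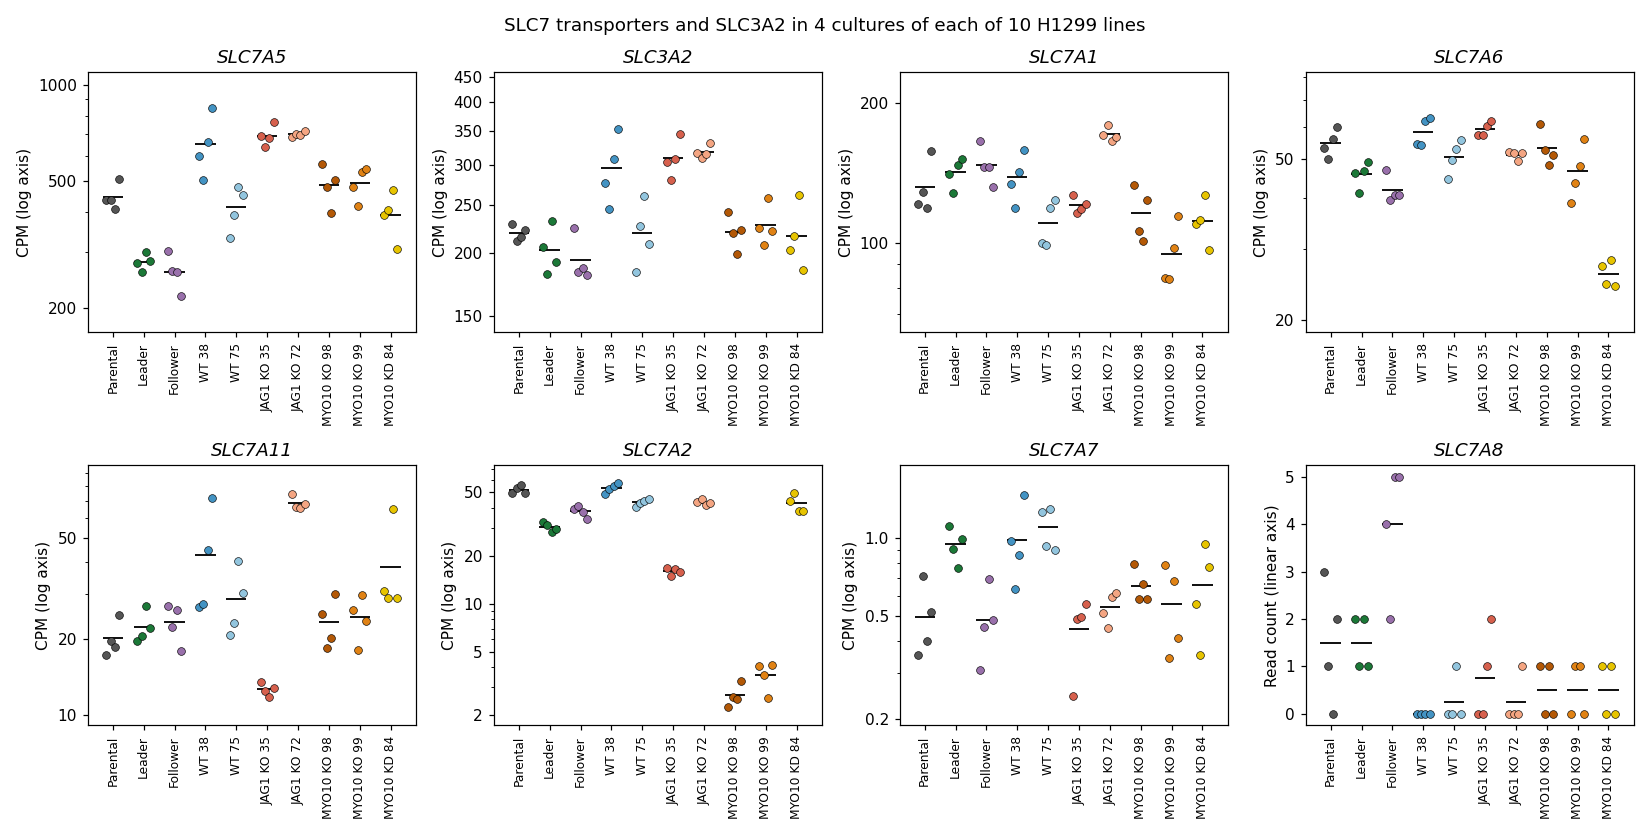
Level of each of the 8 genes in 4 cultures of each of 10 lines, in CPM on log axes, and as read counts on a linear axis for SLC7A8. Points are cultures and bars are means of a line. SLC7A2 lies between 2.25 and 4.15 CPM in the MYO10 knockout clones and at 15 CPM or more in the other lines, and SLC7A11 is lowest in clone 35 and highest on average in clone 72.

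The 10 comparisons between lines used edgeR's quasi-likelihood test, and a call needed both an adjusted p below 0.05 and a log2 fold change of 1 or more in either direction. Where a side of a comparison had several clones, a gene's p was the largest over all pairs of lines, or 1 where pairs differed in direction. None of the 7 tested genes was called between leaders and followers, where 25.4% of all tested genes were, between leaders and parentals (9.76% of all genes), between followers and parentals (20.3%), between wild-type clones 38 and 75 (4.37%) or between the wild-type clones and leaders (9.98%). None was called between the clones labelled JAG1 knockout and the wild-type clones (2.06% of all genes) or between MYO10 knockout clones 98 and 99 (9.55%). At an unadjusted p under 0.05 in edgeR, with no fold needed, these 7 comparisons held 2, 4, 3, 6, 2, 1 and 3 of the 7 genes in that order. The share of all tested genes at that threshold is not given here, so nothing about the 7 genes is read from these counts. At an adjusted p under 0.05 alone in edgeR, 12818 of 19703 tested genes passed between leaders and followers. DESeq2 called 1 of the 7, SLC7A7, in the comparison of the clones labelled JAG1 knockout and 0 in the other 6. In MYO10 knockout against wild-type clones 1 of 7 was called (8.06% of all genes), in the knockdown clone against wild-type clones 1 of 7 (7.19%), and between clones 35 and 72 2 of 7 (21% of all genes). The 3 comparisons of edited with wild-type clones share the wild-type clones and are not independent of each other. Over all 45 pairs of lines, SLC7A2 was called in 22 pairs, SLC7A11 in 11, SLC7A7 in 7, SLC7A5 in 6, SLC7A6 in 4, and SLC3A2 and SLC7A1 in 0. The median of all tested genes was 3 pairs, and 16.9% of all tests of a gene in a pair were called.

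**Figure D2:**
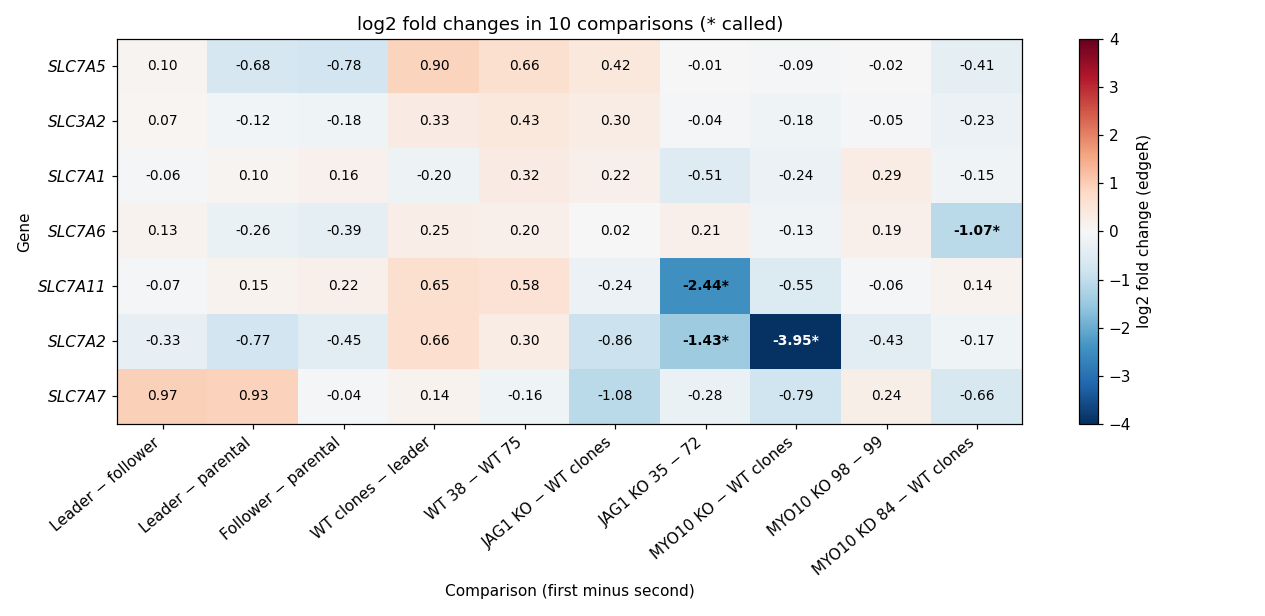
Estimated log2 fold changes of the 7 tested genes (rows) in 10 comparisons (columns), coloured from blue (lower in the first named) to red (higher). An asterisk and bold type mark the 4 calls, among them SLC7A2 at -3.95 in the MYO10 knockout clones and SLC7A11 at -2.44 between clones 35 and 72.

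SLC7A5, on chromosome 16 from 87830023 to 87869488 on the minus strand (GRCh38), encodes the light chain LAT1. Its level was 434, 434, 409 and 508 CPM in the parental cultures, 276, 259, 299 and 281 CPM in leaders and 301, 261, 259 and 218 CPM in followers. Leaders and followers overlapped, and every culture of either line lay below every parental culture. The log2 difference from parentals was -0.68 ± 0.14 (estimate ± SE, edgeR adjusted p = 0.00014) in leaders and -0.78 ± 0.14 (edgeR adjusted p = 8.7e-06) in followers, both short of the fold minimum. Between leaders and followers it was 0.10 ± 0.13 (edgeR adjusted p = 0.52).

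Every culture of the edited clones lay above every leader culture in SLC7A5, by different amounts. Wild-type clone 38 had 599, 502, 660 and 844 CPM and wild-type clone 75 had 331, 392, 479 and 452 CPM, without overlap between the clones or with leaders. The wild-type clones stood above leaders by 0.90 ± 0.12 on the log2 scale (edgeR adjusted p = 0.001), which missed the fold minimum on average. Pairs of lines gave 0.57 for clone 75 and 1.22 for clone 38. Clones labelled JAG1 knockout had 637 to 764 CPM (clone 35) and 686 to 717 CPM (clone 72), MYO10 knockout clones 396 to 565 CPM (clone 98) and 417 to 546 CPM (clone 99), and the knockdown clone 306 to 468 CPM. In order of means, clones 72 and 35 and wild-type clone 38, at 700, 693 and 651 CPM, did not differ between neighbours. The next lines, from clone 99 at 493 CPM through clone 98, parentals and wild-type clone 75 to the knockdown clone at 392 CPM, did not differ between neighbours either. The ends of that run, clone 99 and the knockdown clone, did differ (log2 0.33 ± 0.13, edgeR adjusted p = 0.04). The steps from clone 38 to clone 99 (edgeR adjusted p = 0.011) and from the knockdown clone to leaders (edgeR adjusted p = 0.0028) passed an adjusted p of 0.05.

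SLC3A2, on chromosome 11 from 62856102 to 62888875 on the plus strand, encodes the heavy chain. It held a narrow range, with 229, 212, 216 and 223 CPM in parentals, 206, 182, 232 and 192 CPM in leaders, and 225, 184, 187 and 181 CPM in followers, all overlapping. Wild-type clone 38 had 276, 245, 308 and 354 CPM and wild-type clone 75 had 184, 227, 260 and 209 CPM, which overlapped, with a log2 difference of 0.43 ± 0.11 (edgeR adjusted p = 0.0027). Clone 35 had 280 to 346 CPM and clone 72 had 310 to 332 CPM. The MYO10 knockout clones had 199 to 258 CPM and the knockdown clone 185 to 261 CPM. In the order of line means a single step between neighbours passed an adjusted p of 0.05, from wild-type clone 38 at 296 CPM to clone 99 at 228 CPM (edgeR adjusted p = 0.0032). Over the 10 line means of log2 CPM, the gene most like SLC3A2 among 9997 genes was SLC7A5 (Pearson r = 0.92), followed by ATAD3B (0.911) and CHRNA5 (0.891). For SLC7A5 itself the most alike genes were WDR3 (0.939), TAF1C (0.923) and RGS14 (0.921). TAF1C lies 3.65 megabases from SLC7A5 on the same chromosome. Coefficients over line means, here and for the genes below, are the highest among 9997 genes over only 10 values and are descriptions.

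The number of SLC7A5 reads per SLC3A2 read within a library, which does not depend on the scaling of the library, was lower in the unedited leader and follower lines than elsewhere. Leaders had 1.38 ± 0.08 and followers 1.34 ± 0.092 (mean ± SD, n = 4), parentals 2.03 ± 0.18, and the 7 edited clones between 1.81 ± 0.11 and 2.24 ± 0.037. No culture of leaders or followers reached the lowest of the other 8 lines. On the log2 scale the difference from parentals was -0.55 in leaders and -0.60 in followers. An exact two-sided permutation test of 4 against 4 cultures gave p = 0.0286 for each, the smallest p this design allows, and 0.11 after Benjamini-Hochberg adjustment over 8 tests, which did not pass. The log2 difference of 0.043 between leaders and followers had an exact permutation p of 0.514.

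**Figure D3:**
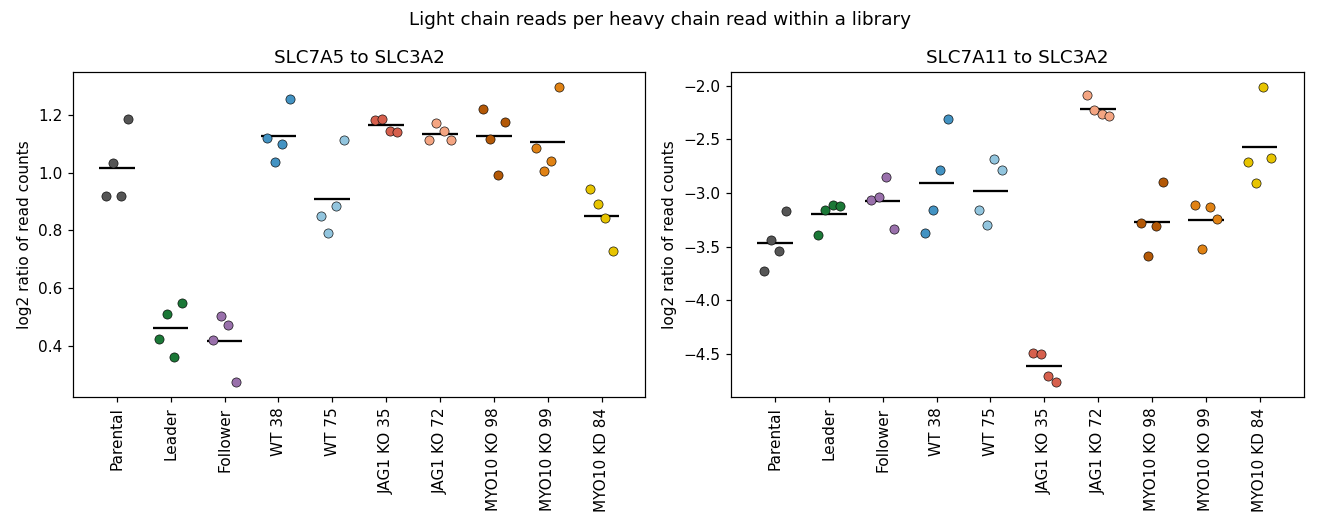
log2 ratio of SLC7A5 (left) and SLC7A11 (right) read counts to SLC3A2 read counts in each culture (points) with line means (bars), for 10 lines. On the left, leaders and followers lie at or below 0.549 and the other lines at or above 0.727. On the right, clone 35 lies at or below -4.49.

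SLC7A11, on chromosome 4 from 138164097 to 138242349 on the minus strand, encodes the cystine transporter light chain xCT. The clones labelled JAG1 knockout stood at the ends of its range, with 13.5, 12.4, 11.8 and 12.8 CPM in clone 35 and 74.4, 66.3, 65.7 and 68.0 CPM in clone 72. Wild-type clone 38 had 26.6, 27.4, 44.8 and 71.5 CPM and wild-type clone 75 had 20.6, 23.0, 40.4 and 30.2 CPM. Clone 35 lay below every other culture of the study, and clone 72 overlapped with 1 culture of wild-type clone 38. SLC7A11 was 5.43-fold lower in clone 35 than in clone 72 (log2 -2.44 ± 0.28, edgeR adjusted p = 4.8e-09). Against the wild-type clones the clones labelled JAG1 knockout went opposite ways, with pairs from -1.75 to 1.26, so the average of -0.24 ± 0.19 describes neither clone (edgeR adjusted p = 1).

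Taken clone by clone, SLC7A11 was lower in clone 35 than in wild-type clone 38 by a log2 difference of 1.75 ± 0.28 (wild-type clone minus clone 35, edgeR adjusted p = 2.2e-06) and than in wild-type clone 75 by 1.18 ± 0.28 (edgeR adjusted p = 0.00053). Clone 72 was higher than wild-type clone 75 (log2 -1.26 ± 0.26, wild-type clone minus clone 72, edgeR adjusted p = 2e-04), while its difference from wild-type clone 38 was -0.69 ± 0.26 (edgeR adjusted p = 0.029), under the fold minimum. These 2 clones also differed in JAG1 itself, at the levels given above, and in 21% of all tested genes, and the part of either in the SLC7A11 difference was not tested. For the heavy chain SLC3A2 the log2 difference between clones 35 and 72 was -0.04 ± 0.11 (edgeR adjusted p = 0.75). There were 0.041 ± 0.0039 SLC7A11 reads per SLC3A2 read in clone 35 and 0.215 ± 0.013 in clone 72.

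In the unedited lines SLC7A11 was 17.3, 19.5, 18.6 and 24.8 CPM in parentals, 19.6, 20.4, 27.0 and 22 CPM in leaders and 26.9, 22.3, 25.9 and 17.9 CPM in followers, all overlapping. MYO10 knockout clones had 18.3 to 29.9 CPM (clone 98) and 18.0 to 29.6 CPM (clone 99), and the log2 difference from the wild-type clones was -0.55 ± 0.19 (edgeR adjusted p = 0.89). The knockdown clone had 30.9, 29, 64.8 and 29 CPM, so that 1 culture stood far above the other 3. Its log2 difference from the wild-type clones was 0.14 ± 0.23 with that culture and -0.24 without it. In the order of line means, the steps at the top, from clone 72 at 68.6 CPM to wild-type clone 38 at 42.6 CPM (edgeR adjusted p = 0.029), and at the bottom, from parentals at 20.1 CPM to clone 35 at 12.6 CPM (edgeR adjusted p = 0.041), passed an adjusted p of 0.05, and the 7 steps between did not. The ends of that middle run did differ (parentals minus wild-type clone 38, log2 -1.09 ± 0.27, edgeR adjusted p = 0.0011). The genes whose line means were most like those of SLC7A11 over the 10 lines were ZNF165 (r = 0.95), PTPN13 (0.924) and MIPOL1 (0.894). SLC7A11-AS1, annotated on the opposite strand, shares 865 exon bases with SLC7A11, and had 40 counts in all libraries together.

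SLC7A6, on chromosome 16 from 68264516 to 68301823 on the plus strand, encodes y+LAT2, which exports cationic amino acids such as arginine against neutral amino acids and sodium. It was 27.2, 24.5, 28.1 and 24.2 CPM in the knockdown clone, 54.4, 54.1, 62.2 and 63.2 CPM in wild-type clone 38 and 44.6, 49.6, 52.9 and 55.7 CPM in wild-type clone 75. No culture of the knockdown clone reached the lowest of the other lines, which was 38.9 CPM in clone 99. In the knockdown clone SLC7A6 fell by 1.07 ± 0.076 (log2), 2.09-fold (edgeR adjusted p = 2.6e-12), with pairs of -1.17 and -0.96 against the wild-type clones. Knockdown rests on 1 clone, and in the MYO10 knockout clones the log2 difference of SLC7A6 was -0.13 ± 0.058 (edgeR adjusted p = 1), at 48.4 to 61.2 CPM in clone 98 and 38.9 to 56.0 CPM in clone 99.

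Genes beside SLC7A6 on chromosome 16 were lower in the knockdown clone too. The 10 tested genes on either side, from CTRL to COG8 over 1.41 megabases, had a median log2 difference of -0.72 from the wild-type clones, beside 0.014 for all tested genes. Of these 20 genes 19 were below 0, 6 were called lower and 1 was called higher, beside 7.19% of all tested genes called. The lowest neighbour was at -2.21 (DPEP3) and the single one above 0 at 1.52 (CDH3, a cadherin), both named after their values were seen. The same 20 genes had a median of -0.02 in the MYO10 knockout clones and -0.06 in the clones labelled JAG1 knockout. In followers they were low as well, with a median of -0.44 from parentals, beside 0.0023 for all tested genes, and 18 of the 20 were below 0. Of the 20, 4 were called lower and 0 higher. Over all tested genes 20.3% were called there, so the count of calls did not exceed the background. SLC7A6 itself was at -0.39 (log2, not called). Values below 0 around SLC7A6 were thus not seen in the knockdown clone alone. The genes whose line means were most like those of SLC7A6, ELMO3 (r = 0.95 over 10 lines), LCAT (0.95) and CIAPIN1 (0.948), all lie on chromosome 16, at 1.07, 0.325 and 10.8 megabases from it. Copy number was not measured, and its part in these values was not tested. SLC7A6OS, on the opposite strand, shares 3371 exon bases with the 7588 of SLC7A6, and as the strand setting of the counting is not given in the sources used here, reads of the 2 genes cannot be fully told apart. SLC7A6OS had a log2 difference of -0.93 in the knockdown clone.

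**Figure D4:**
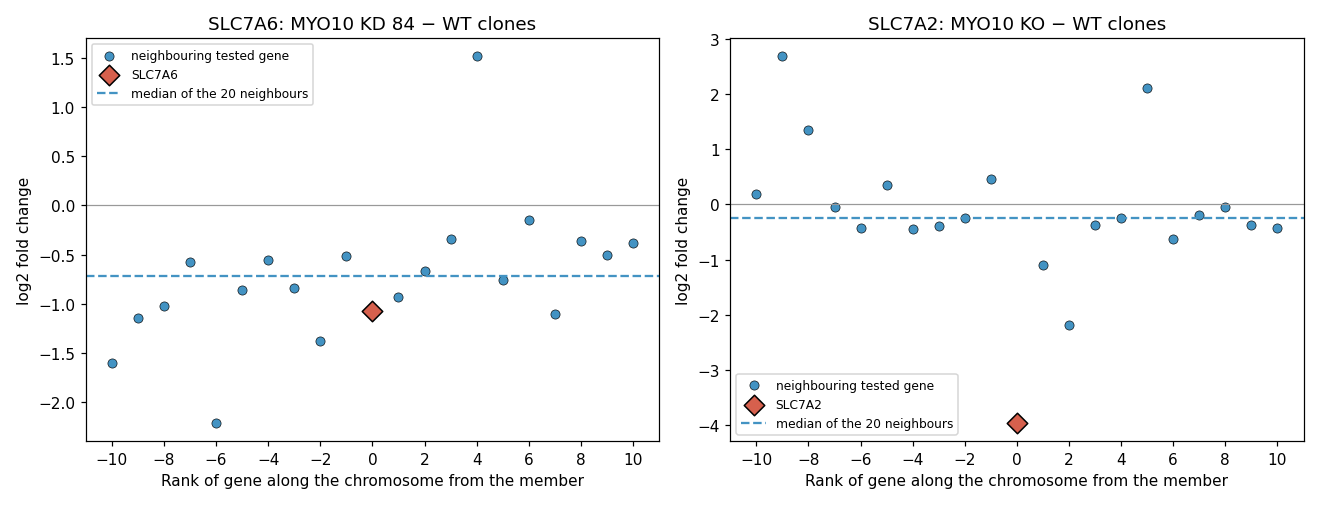
log2 fold change of a gene of interest (diamond) and of the 10 tested genes on each side of it (circles), ordered by position, with the median of the 20 neighbours dashed. Left, SLC7A6 in the knockdown clone at -1.07 beside a median of -0.72. Right, SLC7A2 in the MYO10 knockout clones at -3.95 beside a median of -0.26.

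SLC7A6 in the other lines lay close together. It was 53.3, 49.9, 55.9 and 60.1 CPM in parentals, 46.2, 41.2, 46.7 and 49.1 CPM in leaders and 46.9, 39.6, 40.6 and 40.7 CPM in followers. Clones labelled JAG1 knockout had 57.2 to 62.0 CPM (clone 35) and 49.3 to 52.1 CPM (clone 72). In the order of line means no step between neighbours passed an adjusted p of 0.05 except the last, from followers at 41.9 CPM to the knockdown clone at 26 CPM (edgeR adjusted p = 2.5e-09). Lines further apart did differ, among them followers and clone 35 (followers minus clone 35, log2 -0.50 ± 0.083, edgeR adjusted p = 1.3e-06).

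SLC7A7, on chromosome 14 from 22773222 to 22829820 on the minus strand, encodes y+LAT1, the form of kidney and intestine that is mutated in lysinuric protein intolerance. Its level was low in all lines, between 10 and 61 counts per library. Leaders had 1.12, 0.913, 0.768 and 0.998 CPM, followers 0.308, 0.452, 0.694 and 0.485 CPM and parentals 0.355, 0.713, 0.399 and 0.518 CPM. All leader cultures lay above all cultures of followers and parentals. The log2 difference was 0.97 ± 0.29 between leaders and followers (edgeR adjusted p = 0.0034) and 0.93 ± 0.29 between leaders and parentals (edgeR adjusted p = 0.0085), both just under the fold minimum. Leaving out 1 culture moved these to between 0.83 and 1.21 and between 0.78 and 1.17, so that single cultures decide on which side of the minimum they fall.

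In the edited clones SLC7A7 was 0.976, 0.637, 0.864 and 1.48 CPM in wild-type clone 38 and 1.27, 0.938, 1.3 and 0.905 CPM in wild-type clone 75. It was 0.245, 0.487, 0.496 and 0.559 CPM in clone 35 and 0.515, 0.448, 0.593 and 0.612 CPM in clone 72, below every wild-type culture, although clone 35 had JAG1 RNA close to that of the wild-type clones. The log2 difference was -1.08 ± 0.20, with pairs from -1.30 to -0.86, and its adjusted p of 0.059 in edgeR missed the threshold. It passed with no filter on low counts (0.039), with the 4 lines fitted alone (0.036), in DESeq2 (0.041) and without replicate 2 of wild-type clone 38 (0.022), and with the clone as the unit its adjusted p was 0.85 in edgeR. MYO10 knockout clones had 0.343 to 0.795 CPM and the knockdown clone 0.354 to 0.955 CPM, and neither comparison was called (edgeR adjusted p = 0.13 and 0.12). No step between neighbours in the order of line means passed an adjusted p of 0.05.

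SLC7A8, on chromosome 14 from 23125295 to 23183674 on the minus strand, encodes LAT2, a light chain of polarised epithelia. It had 4, 2, 5 and 5 counts in followers, 3, 1, 0 and 2 in parentals and 2, 1, 2 and 1 in leaders, and no library of the edited clones had more than 2. Wild-type clone 38 had 0 counts in all 4 libraries, which allows up to 0.0714 to 0.0741 CPM (3 counts per library, counting error only). At such counts no comparison was made. Some genes abundant in most cultured cells were also near 0 in this table, LDHA at 0 to 3 counts and ZYX at 0 to 10 counts per library, so a level near 0 does not show absence of a transcript. ASNS, asparagine synthetase and a target of ATF4 on the amino acid response list used here, was low as well at 53 to 220 counts per library.

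SLC7A1, on chromosome 13 from 29509410 to 29595688 on the minus strand, encodes CAT1, the widely expressed arginine and lysine importer. It had 121, 129, 119 and 158 CPM in parentals, 141, 128, 147 and 152 CPM in leaders and 166, 146, 146 and 132 CPM in followers, which overlapped. Wild-type clone 38 had 119 to 159 CPM and wild-type clone 75 had 99.1 to 124 CPM, a log2 difference of 0.32 ± 0.11 (edgeR adjusted p = 0.023). Clone 35 had 127, 116, 118 and 121 CPM and clone 72 had 171, 180, 166 and 169 CPM. Those clones did not overlap, with a log2 difference of -0.51 ± 0.11 (edgeR adjusted p = 9.3e-05), under the fold minimum and in the same direction as SLC7A11 and SLC7A2. MYO10 knockout clones had 101 to 133 CPM (clone 98) and 83.3 to 114 CPM (clone 99), and the knockdown clone 96.7 to 127 CPM. From clone 72 at 171 CPM to clone 99 at 94.7 CPM no step between neighbouring line means passed an adjusted p of 0.05. Lines further apart did differ, among them clones 72 and 99 (log2 0.86 ± 0.11, edgeR adjusted p = 1.7e-08). CLN6 (r = 0.958), TIMM23 (0.944) and CXXC1 (0.939) had line means most like those of SLC7A1.

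SLC7A2, on chromosome 8 from 17497088 to 17570573 on the plus strand, encodes CAT2, a cationic transporter with a liver form of low affinity and a form of high affinity that is induced in activated macrophages. It was almost lost in both MYO10 knockout clones. There were 2.25, 2.62, 2.54 and 3.28 CPM in clone 98 and 4.07, 3.59, 2.57 and 4.15 CPM in clone 99, against 48.5, 52.2, 54.5 and 56.8 CPM in wild-type clone 38 and 40.4, 42.9, 43.9 and 45.2 CPM in wild-type clone 75. In counts, the libraries of the knockout clones held 99 to 182 and those of the wild-type clones 1784 to 2347. SLC7A2 fell by 3.95 ± 0.072 (log2) relative to wild-type clones, 15.4-fold (edgeR adjusted p = 3.5e-29), and the 4 pairs of clones ran from -4.31 to -3.58. With counts summed per clone and the clone as the unit, the value stayed at -3.95 ± 0.52 and the adjusted p was 0.32 in edgeR, where no gene passed among all those tested and 2853 had an unadjusted p under 0.05. In bulk libraries, fewer cells expressing a gene and less RNA per cell cannot be told apart.

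The knockdown clone did not share this. It had 44.0, 49.7, 38.0 and 38.3 CPM of SLC7A2, overlapping both wild-type clones, with a log2 difference of -0.17 ± 0.072 (edgeR adjusted p = 1) and 150 ± 27.3 CPM of MYO10. Between the knockout clones and the knockdown clone the log2 difference was -3.99 ± 0.10 for clone 98 (edgeR adjusted p = 4.7e-31) and -3.56 ± 0.10 for clone 99 (edgeR adjusted p = 1.5e-29). In followers, where MYO10 stood at 0.112 ± 0.144 CPM, SLC7A2 was 39.2, 41.0, 37.5 and 34.1 CPM. The 20 tested genes around SLC7A2 had a median log2 difference of -0.26 between MYO10 knockout and wild-type clones. Of them 2 were called higher and 2 called lower, beside 8.06% of all tested genes called. Next to SLC7A2 lay PDGFRL at -1.1, followed by MTUS1 at -2.18, the lowest, and on the other side MTMR7 at 0.454. Of the 20 genes 14 were below 0, and the highest was TRMT9B at 2.68. These neighbours were named after their values were seen.

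Low SLC7A2 was also seen in 1 of the clones labelled JAG1 knockout. Clone 35 had 16.8, 15, 16.4 and 15.9 CPM and clone 72 had 43.2, 45, 41.4 and 42.6 CPM, the latter within the range of wild-type clone 75. SLC7A2 was 2.69-fold lower in clone 35 than in clone 72 (log2 -1.43 ± 0.087, edgeR adjusted p = 2e-18), and the 20 genes around it had a median of 0.38 in that comparison. Clone 35 remained above the MYO10 knockout clones, by 2.58 ± 0.10 over clone 98 and 2.15 ± 0.10 over clone 99 on the log2 scale (edgeR adjusted p = 9.5e-24 and 1.2e-21). MYO10 stood at 248 ± 3.96 CPM in clone 35 and 518 ± 17 CPM in clone 72.

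Among unedited lines SLC7A2 was 49.4, 52.9, 55.8 and 49.2 CPM in parentals and 32.7, 31.1, 28.2 and 29.3 CPM in leaders. The 3 unedited lines did not overlap, with leaders lowest, followers between and parentals highest. The log2 difference was -0.77 ± 0.084 between leaders and parentals (edgeR adjusted p = 2.9e-10), -0.45 ± 0.083 between followers and parentals (edgeR adjusted p = 9e-06) and 0.66 ± 0.074 between the wild-type clones and leaders (edgeR adjusted p = 2.8e-06), all under the fold minimum. From the highest line mean down, wild-type clone 38 and parentals did not differ, nor did neighbours from wild-type clone 75 through clone 72 and the knockdown clone to followers, and every other step passed an adjusted p of 0.05. NUDT11 (r = 0.95), ADAL (0.949) and HK1 (0.94) had line means most like those of SLC7A2 over the 10 lines.

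Cultures of the same line varied together in several of these genes. For each culture the log2 CPM of a gene was set relative to the mean of its line, and these deviations were compared over 40 cultures, which share line, library and depth, so the coefficients are descriptions. SLC7A5 had a Pearson r of 0.873 with SLC7A1, 0.858 with SLC3A2, 0.804 with SLC7A11 and 0.718 with SLC7A6. SLC7A11 had 0.765 with SLC3A2 and 0.709 with SLC7A1. SLC7A2 had coefficients between -0.323 and 0.107 with the other 6 genes, so its deviations did not run with theirs. The largest deviations of SLC7A11 were those of replicate 4 of wild-type clone 38 (0.87) and replicate 3 of the knockdown clone (0.85), and replicates 1 and 2 of wild-type clone 38 lay at -0.56 and -0.51.

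Part of a list of 33 tested genes of the amino acid response and of ATF4 targets ran with the same deviations. The median r of the list was 0.55 with SLC7A11, 0.54 with SLC3A2, 0.49 with SLC7A5, 0.39 with SLC7A1, 0.30 with SLC7A7, 0.25 with SLC7A6 and -0.098 with SLC7A2, against medians of -0.03 to -0.0026 over all 19703 tested genes. Of the 33 genes, 19 had an r over 0.5 with SLC7A11, 18 with SLC3A2, 16 with SLC7A5, 7 with SLC7A1, 5 with SLC7A6, 1 with SLC7A7 and 0 with SLC7A2. Of all 19703 tested genes 453 had an r over 0.5 with SLC7A11, 629 with SLC3A2, 845 with SLC7A5, 1134 with SLC7A1, 1137 with SLC7A6, 41 with SLC7A7 and 85 with SLC7A2. PSPH, CTH, EIF2AK3 and DDIT4 of the list lay between -0.0781 and 0.000255 with SLC7A5. The highest with SLC7A11 were MTHFD2 (0.866), an enzyme of mitochondrial folate metabolism, GARS1 (0.864), a transfer RNA synthetase, and PSAT1 (0.811), an enzyme of serine synthesis. Medians with SLC7A11 were 0.32 for 21 genes of glutathione, thioredoxin and NRF2 and -0.031 for 28 genes of amino acid sensing by mTORC1. These coefficients were looked at after the values of the members were known.

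**Figure D5:**
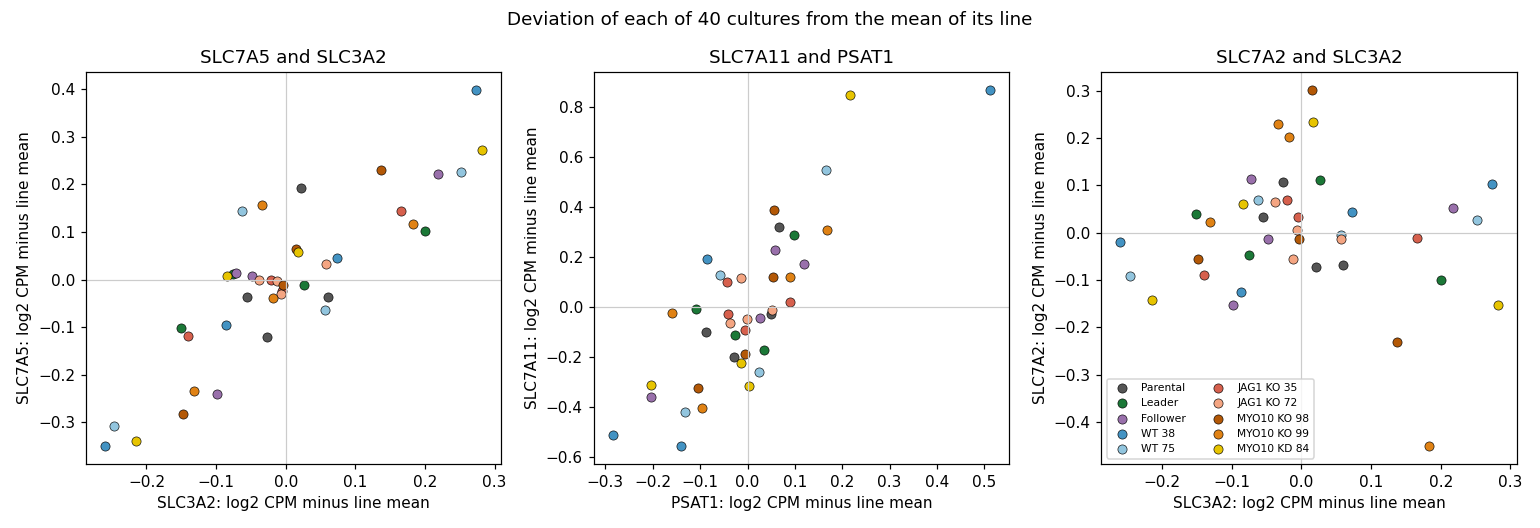
Deviation of each of 40 cultures from the mean of its line, in log2 CPM, for SLC7A5 against SLC3A2 (left), SLC7A11 against PSAT1 (middle) and SLC7A2 against SLC3A2 (right), coloured by line. Points rise along a diagonal on the left (r = 0.858) and in the middle (r = 0.811) and show no such line on the right (r = -0.088).

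As SLC7A1, SLC3A2 and SLC7A5 varied together within lines, their RefSeq promoter windows (GRCh38.p14, 250 bases before the start to 50 after it) are shown, with matches to 3 motifs in capitals. The motifs were TGATGNAA, the core of the C/EBP-ATF response element bound by ATF4, TGACNNNGC, the core of the antioxidant response element, and TGACTCA, the AP-1 site, each searched on both strands. They occur in 3.62%, 13.3% and 4.95% of 35116 promoter windows. Positions count the start base as 0, and a match is a description of letters. SLC7A11, whose deviations also ran with these genes, and SLC7A2 were not analysed here for promoter windows. SLC7A6, whose deviations ran with those of SLC7A1 (r = 0.807) and SLC7A5 (0.718), is described below without its sequence.
SLC7A1, chr13:29595639-29595938, minus strand: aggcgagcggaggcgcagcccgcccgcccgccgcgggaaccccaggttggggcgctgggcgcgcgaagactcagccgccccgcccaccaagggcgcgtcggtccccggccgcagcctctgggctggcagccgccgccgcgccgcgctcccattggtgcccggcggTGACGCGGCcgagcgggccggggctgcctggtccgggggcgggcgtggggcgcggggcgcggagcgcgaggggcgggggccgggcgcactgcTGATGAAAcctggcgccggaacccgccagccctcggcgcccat
SLC3A2, chr11:62881449-62881748, plus strand: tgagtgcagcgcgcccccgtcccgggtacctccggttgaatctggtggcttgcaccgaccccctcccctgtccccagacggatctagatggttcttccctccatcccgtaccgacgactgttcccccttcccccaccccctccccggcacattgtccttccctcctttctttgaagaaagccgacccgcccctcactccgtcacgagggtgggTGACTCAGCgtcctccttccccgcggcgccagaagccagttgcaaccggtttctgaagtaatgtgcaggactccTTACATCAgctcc
SLC7A5, chr16:87869458-87869757, minus strand: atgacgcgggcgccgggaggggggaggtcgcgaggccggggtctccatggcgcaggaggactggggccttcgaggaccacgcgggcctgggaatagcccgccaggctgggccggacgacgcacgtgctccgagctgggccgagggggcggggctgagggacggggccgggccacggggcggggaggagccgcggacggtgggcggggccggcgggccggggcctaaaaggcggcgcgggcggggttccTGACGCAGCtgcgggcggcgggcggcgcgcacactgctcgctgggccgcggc

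The SLC7A1 window held TGATGAAA from position 7 and TGACGCGGC from position -85. The SLC3A2 window held TTACATCA, the reverse complement of a TGATGNAA match, from position 37, and TGACTCAGC from position -37, which matches TGACTCA and TGACNNNGC over the same bases. It is 1 of 3 windows listed for SLC3A2, and the other 2 held no match. The SLC7A5 window held TGACGCAGC across the start, from position -2, and no TGATGNAA. The SLC7A6 window held 2 matches of TGACNNNGC and no TGATGNAA, and the first of 3 SLC7A7 windows held 1 match of TGACNNNGC. None of the 4 SLC7A8 windows held a match.

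Counts of called genes for lists of the same pathways are given beside the share of all tested genes called in each comparison. Between clones 35 and 72, where SLC7A11 and SLC7A2 differed, 9 of the 33 tested amino acid response genes were lower in clone 35, 1 was higher and 23 were not called, beside 21% of all tested genes called, with a median log2 difference of -0.44 beside 0.0044 for all genes. The lower genes included STC2, the glycoprotein stanniocalcin-2 (5.03 against 64.9 CPM, log2 -3.69 ± 0.21, edgeR adjusted p = 2.2e-16), CHAC1, which degrades glutathione (3.66 against 16.1 CPM, -2.14 ± 0.23, edgeR adjusted p = 4.3e-10), and PHGDH, the first enzyme of serine synthesis (68.1 against 171 CPM, -1.33 ± 0.093, edgeR adjusted p = 6.8e-15). The others were ATF3, DDIT4, TRIB3, ALDH1L2, VLDLR and NUPR1, the last at 0.0252 against 0.119 CPM. The higher gene was the transcription factor ATF5 (98.8 against 27.3 CPM, log2 1.86 ± 0.059, edgeR adjusted p = 2.4e-28). All 10 called genes are named, after their values were seen.

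In the MYO10 knockout clones 2 of 33 amino acid response genes were lower and none was higher, with a median log2 difference of -0.12. Over all tested genes 8.06% were called in this comparison, so this list's count did not exceed the background, and the other counts given here, of at most 3 genes a list, are small. STC2 fell by 2.27 ± 0.14 (8.56 against 37.7 CPM, edgeR adjusted p = 6.5e-07) and the stress factor ATF3 fell by 1.76 ± 0.20 (4.91 against 15.5 CPM, edgeR adjusted p = 0.0087). ATF3 missed an adjusted p of 0.05 without replicate 2 or replicate 3 of clone 98 (edgeR adjusted p = 0.051 and 0.052) and with the lines of this comparison fitted alone (0.067). Of 21 genes of glutathione, thioredoxin and NRF2, 3 were lower, 0 higher and 18 not called, with a median of -0.28. They were thioredoxin reductase TXNRD1 (683 against 1510 CPM, log2 -1.15 ± 0.082, edgeR adjusted p = 1.8e-08), SRXN1, which repairs peroxiredoxins (52.3 against 109 CPM, -1.07 ± 0.079, edgeR adjusted p = 1.9e-07), and ACSL4, a lipid enzyme linked to ferroptosis (40.8 against 77.9 CPM, -1.08 ± 0.056, edgeR adjusted p = 9.2e-05). Of 20 other amino acid transporters 3 were lower, among them SLC6A15, a carrier of neutral amino acids (10.2 against 26.1 CPM, -1.35 ± 0.072, edgeR adjusted p = 3.4e-11), and SLC16A10, which carries aromatic amino acids (4.21 against 11.3 CPM, -1.50 ± 0.086, edgeR adjusted p = 9.4e-09). Of 28 genes of amino acid sensing by mTORC1, 2 were lower, the GTPases RHEB (145 against 340 CPM, -1.25 ± 0.032, edgeR adjusted p = 2.9e-18) and RRAGD (2.5 against 8.4 CPM, -1.74 ± 0.11, edgeR adjusted p = 0.008, and 0.059 without replicate 3 of clone 98), and 1 was higher. Of 17 genes of arginine and polyamine metabolism, which use what the cationic transporters import, 1 was higher and 0 lower.

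In the knockdown clone, where 7.19% of all tested genes were called, 1 of 33 amino acid response genes was called, the pseudokinase TRIB3, and none was lower. TRIB3 had 28.2, 29.9, 87.6 and 32.6 CPM in its cultures against a mean of 18.3 CPM in the wild-type clones (log2 1.29 ± 0.19, edgeR adjusted p = 0.00016). The call rests on replicate 3, the culture that also stood apart for SLC7A11, and without it the log2 difference was 0.72 (edgeR adjusted p = 0.00047), under the fold minimum. Of 21 genes of glutathione, thioredoxin and NRF2, 1 was lower, the quinone reductase NQO1 (137 against 280 CPM, -1.02 ± 0.095, edgeR adjusted p = 2e-08), which without replicate 1 or replicate 2 of the clone was at -0.94, and with library totals alone at -0.98, under the fold minimum. RRAGD was among 2 higher genes of amino acid sensing (27.8 against 8.4 CPM, 1.86 ± 0.11, edgeR adjusted p = 5.9e-10). In the clones labelled JAG1 knockout 0 of 33 amino acid response genes and 0 of 20 other transporters were called by edgeR, and 4 of each list had an unadjusted p under 0.05. The share of all tested genes at that unadjusted threshold is not given here, so nothing about the lists is read from it. Of 21 genes of glutathione, thioredoxin and NRF2, 1 was lower there, the ferroptosis suppressor AIFM2 (6.82 against 22.7 CPM, log2 -1.77 ± 0.071, edgeR adjusted p = 8.7e-15). Of 28 genes of amino acid sensing 1 was lower, RRAGD (1.06 against 8.4 CPM, -3.02 ± 0.13, edgeR adjusted p = 1.9e-09). Of 17 genes of arginine and polyamine metabolism 1 was lower, the argininosuccinate synthase ASS1, named after its values were seen. Of 11 proteins reported to bind CD98hc or xCT, 3 were lower there, beside 2.06% of all tested genes called, integrin chain ITGA3 (57.2 against 158 CPM, -1.59 ± 0.096, edgeR adjusted p = 9.5e-06), lactate carrier SLC16A3 (31.7 against 113 CPM, -2.61 ± 0.12, edgeR adjusted p = 0.016) and galectin LGALS3 (3.7 against 7.24 CPM, -1.02 ± 0.086, edgeR adjusted p = 0.03). The log2 value averages over pairs of lines and the CPM are plain means, which part where clones are unequal, as for SLC16A3. With the clone as the unit, where no gene was called, SLC16A3 was at -1.82. Leaving out single cultures ended the call of LGALS3 in 7 cases and that of SLC16A3 in 4, with adjusted p up to 0.22 and 0.075 in edgeR. Calls in this list were not particular to that comparison. Between clones 35 and 72, 5 of the 11 were higher in clone 35 and 1 was lower, beside 21% of all tested genes called. In the MYO10 knockout clones 2 were higher and 0 lower (8.06% of all genes). In wild-type clones against leaders 0 were higher and 3 lower (9.98%).

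Between leaders and followers, where no member was called, 4 of 33 amino acid response genes were higher and 2 lower, with a median log2 difference of -0.20. This was a smaller share than the 25.4% of all tested genes called in this comparison, and nothing about the list is read from it. STC2 was higher in leaders (67 against 14.2 CPM, 2.24 ± 0.19, edgeR adjusted p = 3.4e-12) and CEBPG, a dimer partner of ATF4, was lower (56.5 against 212 CPM, -1.91 ± 0.091, edgeR adjusted p = 4.2e-20). Of 28 genes of amino acid sensing 2 were higher and 3 lower, among them RRAGD (4.26 against 38.4 CPM, -3.17 ± 0.14, edgeR adjusted p = 1.2e-21). TXNRD1 was higher in leaders (1370 against 444 CPM, 1.62 ± 0.12, edgeR adjusted p = 8e-14). Against parentals, followers had more of the glutamine carriers SLC38A1 (586 against 276 CPM, 1.09 ± 0.073, edgeR adjusted p = 5.7e-16) and SLC38A2 (792 against 381 CPM, 1.05 ± 0.075, edgeR adjusted p = 3.2e-15), 2 of 4 higher genes among 20 other transporters, of which 2 were lower, beside 20.3% of all tested genes called. SLC38A2 lies at the fold minimum and fell short of it, at 0.98 to 0.99, without replicate 1 of parentals, replicate 3 of followers or replicate 4 of followers, with library totals alone (0.97) and with the compared lines fitted alone (0.997).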

How the data were processed

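The authors deposited 1 table of raw counts per gene, which hold only whole numbers. The submitters' processing notes name fastp 0.23.4, FastQC 0.12.0, HTSeq 2.0.5, MultiQC 1.24.1 and STAR 2.7.11b, and the build hg38; strand setting and annotation release are not given in the sources used here. Per the labels' protocols, RNA was column-purified and sequenced on a NovaSeq X-Plus.

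Genes passing filterByExpr (minimum count 10; 19703 genes, 99.96% of counts) were TMM-scaled (trimmed mean of M values, factors 0.952 to 1.06) and fitted in edgeR 4.0.16 (R 4.3.3, limma 3.58.1) with 1 coefficient per line, robust quasi-likelihood, 30 residual degrees of freedom and no replicate block; the common biological coefficient of variation was 8.62%. P-values were Benjamini-Hochberg adjusted over all tested genes. CPM are of the scaled library; 2 was the prior count for log2 CPM. Standard errors cover the spread between cultures, not between clones. The fit took all lines together, although cultures of some lines were more alike than those of others. For SLC7A5 the SD was 12.6 CPM in clone 72 and 144 CPM in wild-type clone 38. Alternatives were DESeq2 1.42.0, other size factors, library totals alone, no filter, the compared lines alone, no fold minimum, a replicate block, the clone as the unit, and leaving out each culture. The same alternatives for genes of the pathway lists, and the tests of JAG1 and MYO10 clone by clone, were added after the data were seen.

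Positions, exon lengths and neighbours are from GENCODE v29, and promoter windows from RefSeq. The members and lists were chosen with earlier results of these data known. Named genes are the members, for each member of at least 5 CPM in its highest line the 3 genes with the most alike line means, and up to 3 called genes per list of at least 5 CPM in 6 comparisons; others are marked. On simulated counts for leaders against followers, run on 18905 genes, 39 of 100 genes changed 2-fold and 94 of 100 changed 4-fold were called, and for MYO10 knockout, run on 18884 genes, 35 and 82 of 100. No unchanged gene was called in either. A 2-fold change lies at the fold minimum itself, and 78 (leaders against followers) and 66 (MYO10 knockout) of those genes passed the adjusted p alone. Unchanged genes had the same simulated mean in every line. Differences between clones were thus not simulated, and false calls arising from them were not tested.

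The replicate numbers of the labels were checked as pairs. Correlations of deviations between cultures of the same number ran from -0.149 to 0.211, and in no comparison did every pair exceed 0.1, so the numbers were not taken to pair the cultures. A few genes of the marker and pathway lists are not reported here.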

Additional observations from a re-analysis of the deposited data

Results flagged for a closer look

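In 79 groups of 4 cultures, a gene in a line, 4 had a culture far from the other 3 by Dixon's criterion, where chance gives about 1 in 20. Groups of SLC7A8 are among the 79 but, at 5 counts or fewer per library, were too low to be flagged. SLC7A11 was 64.8 CPM in replicate 3 of the knockdown clone and 29 to 30.9 CPM in its other cultures. Replicate 1 of followers was the highest of its line for both SLC7A6, at 46.9 CPM against 39.6 to 40.7 CPM, and SLC3A2, at 225 CPM against 181 to 187 CPM. SLC7A6 was 49.3 CPM in replicate 3 of clone 72, below 51.7 to 52.1 CPM in its other cultures.

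Clones 35 and 72, both labelled JAG1 knockout, differed in edgeR's test, so their effects against the same wild-type clones were unequal, for SLC7A11 (clone 35 minus clone 72, log2 -2.44) and SLC7A2 (log2 -1.43). No member was called between MYO10 knockout clones 98 and 99.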

How the results depend on the processing

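The calls of SLC7A6 in the knockdown clone and of SLC7A11 and SLC7A2 between clones 35 and 72 held under all alternatives run, with log2 values of -1.11 to -1.02, -2.48 to -2.39 and -1.46 to -1.38. SLC7A2 in the MYO10 knockout clones ran from -4 to -3.88 and lost its call with the clone as the unit, where 0 members and 0 genes were called in either knockout comparison (1385 genes at an unadjusted p under 0.05 for JAG1 and 2853 for MYO10). A replicate block changed the call of none of the 70 values of a member in a comparison, and SLC7A2 in the MYO10 knockout clones stayed at -3.95 in that fit.

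With no fold minimum the genes called were 12818 for leaders against followers, 7305 and 12024 for leaders and followers against parentals, 5029 between wild-type clones, 6720 for wild-type clones against leaders, 1244, 4680 and 5664 for the clones labelled JAG1 knockout, MYO10 knockout and knockdown, and 12205 and 8762 between clones 35 and 72 and between clones 98 and 99. Members called were then 2 for leaders against followers, 4 and 3 for leaders and followers against parentals, 4 between wild-type clones, 2 for wild-type clones against leaders, and 4 and 2 between clones 35 and 72 and between clones 98 and 99. In the clones labelled JAG1 knockout 1 member, SLC7A7, was called with no filter, with the lines alone and in DESeq2.

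Values near 0 changed sign. SLC7A5 between clones 35 and 72 was 0.0041 with DESeq2's size factors, 0.0076 with no filter and 0.0041 in DESeq2. With library totals alone SLC7A6 was -0.012 in the clones labelled JAG1 knockout and SLC7A5 was 0.00066 between MYO10 knockout clones. SLC7A11 was 0.19 in the clones labelled JAG1 knockout with the clone as the unit. Leaving out 1 culture gave 0 to 1 member called, SLC7A7, for leaders against followers, leaders against parentals and the clones labelled JAG1 knockout. It gave log2 ranges across 0 between MYO10 knockout clones for SLC7A5 (-0.096 to 0.065), SLC7A11 (-0.20 to 0.063) and SLC3A2 (-0.086 to 0.021). Between clones 35 and 72 the ranges were -0.065 to 0.036 for SLC7A5 and -0.10 to 0.014 for SLC3A2. Between leaders and followers they were -0.16 to 0.044 for SLC7A11, -0.10 to 0.035 for SLC7A1 and -0.0044 to 0.076 for the ratio of SLC7A5 to SLC3A2. SLC7A7 ran from -0.30 to 0.16 for followers against parentals and from -0.42 to 0.0048 between wild-type clones, where the ratio of SLC7A11 to SLC3A2 ran from -0.12 to 0.23. SLC7A6 in the clones labelled JAG1 knockout ran from -0.011 to 0.042. SLC7A11 in the knockdown clone ran from -0.24, without replicate 3, to 0.32. The cause was not tested, beyond that fewer samples enter these fits. Depth limits SLC7A7 and SLC7A8, and the number of clones limits what a genotype shows.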
